A study of Mus musculus with 13 samples.

Results

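*Trp63*, *Trp53*, *Chek2*, *Atm*, *Atr*, *Bax*, *Bcl2*, *Mcl1*, *Bbc3* and *Pmaip1* are the 10 genes described here, chosen by symbol as genes of oocyte attrition, the DNA damage checkpoint and apoptosis. They were found in the count table of fetal oocytes by gene identifier, each as 1 of its 55335 genes, and all 10 had enough reads to be tested. At E17.5, GFP-positive germ cells (*Pou5f1*-GFP transgene) of single female embryos had been isolated by flow cytometry, and 1 library of 3′ tags (reads from the 3′ end of mRNA) was made from each of 13 embryos. The purpose of the series was to see what loss of the glucocorticoid receptor (GR), encoded by *Nr3c1*, does to the germline transcriptome. WT (n = 3) and KO (n = 3) embryos came from a constitutive cross of mice carrying an *Nr3c1* allele that had lost exon 3 through a ubiquitous (β-actin) Cre, so that KO embryos lacked the exon in every tissue. The flox (n = 3) and cKO (n = 4) embryos came from a conditional cross with floxed *Nr3c1* alleles. The cKO embryos also carried a tamoxifen-inducible Cre at the *Pou5f1* locus, which deletes the exon in germ cells, and the flox embryos were negative for Cre. All dams of the conditional cross, those of the flox controls included, received 125 μg/g tamoxifen at E10.5, and the constitutive cross received none. The labelled strains are Tg(Pou5f1-EGFP)2Mnn and Nr3c1tm1.1Jda in all 4 groups, with Pou5f1tm1.1(cre/Esr1*)Yseg added in the cKO group, and litters were not given in the labels.

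A large share of fetal oocytes in the mouse is lost around birth, and oocytes with unrepaired meiotic breaks are removed by a checkpoint. In this checkpoint, the kinases ATM and ATR sense breaks and unsynapsed chromosomes, ATM activates the effector kinase CHK2 (*Chek2*), and CHK2 in turn activates TAp63, the p63 isoform of oocytes (*Trp63*), and p53 (*Trp53*). Both transcription factors can induce the BH3-only proteins PUMA (*Bbc3*) and NOXA (*Pmaip1*), which neutralise the survival proteins BCL2 and MCL1 and so release BAX to permeabilise mitochondria. TAp63 and CHK2 are controlled to a great extent by phosphorylation, and BAX by its shape and location, none of which an mRNA count measures.

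None of the 10 genes passed an adjusted p ≤0.05 in either model of GR loss. In KO against WT, 0 of 10 were called by edgeR's quasi-likelihood test, with 0% of the 13086 genes tested called, and 1 of 10 (*Atm*) had an unadjusted p under 0.05, with a share of 5.82% over all genes. In cKO against flox, 0 of 10 were called, again with 0% over all genes, and 1 of 10 (*Trp63*) had an unadjusted p under 0.05, with 3.19% over all genes. DESeq2 and limma's voom also called 0 of the 10 in both comparisons. They gave 1 and 2 of them an unadjusted p under 0.05 in KO and 1 and 1 in cKO. The shares over all genes by DESeq2 and voom are not given here, so these counts have no background beside them.

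Each library held between 2048706 and 3674989 reads counted on genes (median 2483236), and a single read was worth 0.272 to 0.486 CPM, the unit of all levels below. CPM are counts scaled to a common library size by the TMM method, per 1000000 reads of that size. Of 12 oocyte markers, 11 had reads, and their summed level was 12340 to 18762 CPM in the 13 libraries. *Sycp3*, a defining protein of the meiotic chromosome axis, had 0 counts in all 13. The paper stained SYCP3 in spreads of fetal oocytes, so this count does not show that the gene was silent. Pregranulosa and stromal markers summed to 79.9 to 204 CPM. The table gives 1 count for the whole of *Nr3c1* and none for the deleted exon, so the loss of the exon could not be checked in it. Its level was 44.6 ± 14.8 CPM in WT, 44.6 ± 25.3 in KO, 65.8 ± 33.3 in flox and 52.6 ± 18.03 in cKO (SD). The log2 difference was −0.003 (SE 0.53, interval −1.11 to 1.10) in KO and −0.32 (SE 0.50) in cKO. From single-cell RNA-seq at an earlier embryonic stage, the paper reports depletion of total *Nr3c1* transcript in every ovarian cell type of KO embryos. The whole-gene count showed no such drop in KO here, and the reason was not tested.

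Reads had been counted over the whole interval of each gene, introns included, and levels of 3′ tags are not divided by length, so the 10 genes are compared between embryos and not with each other. For 6 of the 10 (*Atm*, *Chek2*, *Trp53*, *Mcl1*, *Bbc3* and *Pmaip1*) no other annotated gene overlapped the interval on mm10. The last 500 bases of *Atr* lie wholly inside the antisense gene *Gm16794*, which had 374 reads over the 13 libraries, and without a stated strand setting reads of the overlap cannot be told apart. Of the 13 annotated transcript ends of *Atr*, 2 lie inside another gene. For *Bax*, 17.6% of the interval overlapped *Gm45808*, at its 5′ end, where 8 reads were counted on the partner. The overlap took in 52.0% of the exonic bases of *Bax* and 0% of its last 500 bases. For *Bcl2* the overlapped share was 19.98%, with 0 reads on any partner, and for *Trp63* it was 0.493%. A processed pseudogene of *Trp53*, *Trp53-ps*, had 0 reads. Of the 451 windows of 50 bases in the last 500 bases of the longest *Trp53* transcript, 0 were identical to a window of the pseudogene.

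Promoter sequences were searched for letter matches to sites of the glucocorticoid receptor and of p53. RefSeq windows on GRCm38.p6, from 250 bases before to 50 after a transcription start, were at hand for 8 of the 10 genes (10 windows, 3 of them for *Bbc3*) and not for *Trp63* or *Pmaip1*. The glucocorticoid receptor's hexamer, AGAACA or TGTTCT on either strand, was in 0 of these 10 windows, and in 19.0% of all 32851 windows. The p53 decamer consensus, the repeat unit that p53 and p63 bind, was in 2 of the 10, those of *Bax* and *Trp53*, and in 8.36% of all windows. The matches are printed with 10 bases on each side and the matched decamer in capitals.
*Bax*, chr7:45467080-45467109, minus strand: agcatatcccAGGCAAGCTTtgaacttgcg
*Trp53*, chr11:69580274-69580303, plus strand: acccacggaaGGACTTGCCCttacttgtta
The decamer begins 201 bases before the start of *Bax* and 75 bases before that of *Trp53*. These letter matches were not tested for binding, and sequence outside the windows was not searched.

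**Figure D1:**
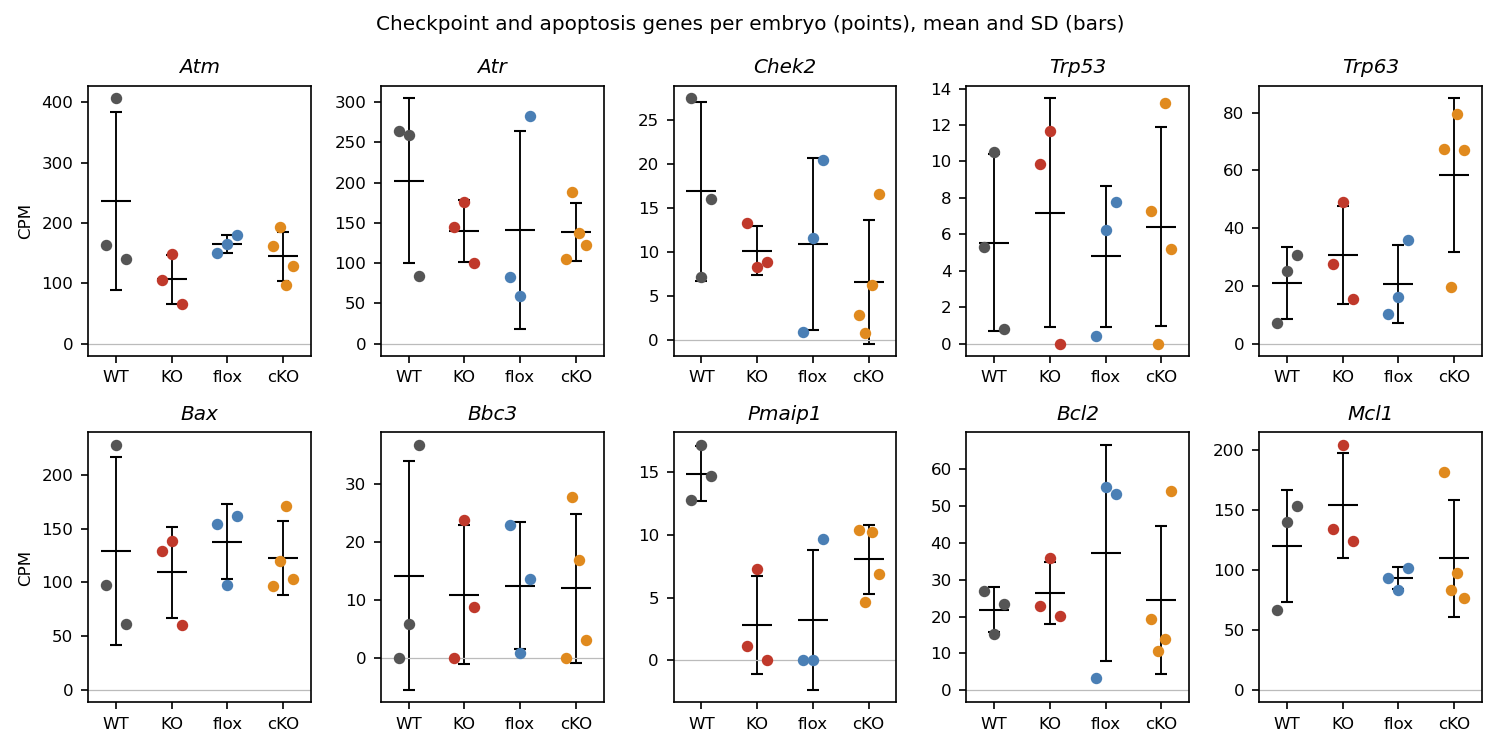
Level of each of the 10 genes in CPM (y axis, a separate linear scale per gene) in the 4 groups (x axis). Each point is 1 embryo, the long dash is the group mean and the bars are ± 1 SD (n = 3, 3, 3 and 4). The points of KO and WT overlap in every panel except that of *Pmaip1*, and those of cKO and flox overlap in every panel. Of the 4 cKO points of *Trp63*, 3 lie above the rest of that panel.

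In the checkpoint kinases no difference was called, and *Atm* had the lowest p of the 10 genes in KO. *Atm* (ENSMUSG00000034218.16; chromosome 9, 53439149 to 53536740, minus strand) encodes the kinase recruited to double-strand breaks. Its level in the 3 WT embryos was 163, 407 and 140 CPM, and in the 3 KO embryos 105, 148 and 66.4 CPM. The highest KO embryo stood between the 2 lower WT embryos, so the groups overlapped, and WT replicate 2 was far above every other library. The log2 difference of KO from WT was −1.15 (SE 0.40, 95% interval −1.97 to −0.33), with an unadjusted p of 0.00801 and an adjusted p of 0.847 in edgeR's test, and the exact two-sided permutation p over embryos was 0.20 (n = 3 and 3). Without WT replicate 2 the difference was −0.50 with an unadjusted p of 0.206. In the conditional model *Atm* was even among controls, at 151, 166 and 180 CPM in flox, and stood at 161, 192, 97.7 and 128 CPM in cKO. The log2 difference there was −0.19 (SE 0.37), with an interval from −0.95 to 0.56. The effect in KO and the effect in cKO differed by −0.95 (SE 0.54, unadjusted p = 0.0898, adjusted p = 0.9999 in edgeR's test), so a difference between the models was not called.

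*Atr* (ENSMUSG00000032409.15; chromosome 9, 95857597 to 95951781, plus strand) encodes the kinase that answers single-stranded DNA and unsynapsed axes. The WT embryos were at 264, 259 and 84.6 CPM and the KO embryos at 144, 176 and 99.8 CPM, inside the range of WT. The flox embryos spread most, at 82.4, 58.6 and 283 CPM, while the cKO embryos were at 105, 189, 137 and 123 CPM. The log2 differences were −0.53 (SE 0.48) in KO and −0.03 (SE 0.45) in cKO, both smaller than the spread between embryos. *Chek2* (ENSMUSG00000029521.7; chromosome 5, 110839979 to 110874145, plus strand), the effector kinase between ATM and the p53 family, had only 2 to 62 reads per library. It was at 27.4, 7.17 and 16.0 CPM in WT and at 13.3, 8.26 and 8.80 in KO. In the conditional cross it was at 0.845, 11.6 and 20.4 CPM in flox and at 2.77, 0.781, 6.24 and 16.6 in cKO. In both crosses the ranges overlapped, and the log2 differences of −0.73 (SE 1.29) and −0.72 (SE 1.20) have intervals that reach from under −3 to 1.93 in KO and 1.75 in cKO.

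*Trp63* (ENSMUSG00000022510.14; chromosome 16, 25683763 to 25892102, plus strand) encodes the p63 proteins, of which TAp63 guards the oocyte pool. In the conditional cross the flox embryos were at 10.1, 16.0 and 35.9 CPM and the cKO embryos at 67.5, 19.5, 79.7 and 66.9 CPM. Of the 4 cKO embryos, 3 were above every flox embryo, and cKO replicate 2 lay inside the flox range. The group means were 20.7 ± 13.5 in flox and 58.4 ± 26.6 CPM in cKO (SD, n = 3 and 4), a log2 difference of 1.499 (SE 0.69, 95% interval 0.08 to 2.92). Its unadjusted p was 0.0394, its adjusted p 0.9998 in edgeR's test, and its exact two-sided permutation p 0.0857, where 0.0286 is the smallest that 4 against 3 embryos allow. The difference was between 1.17 and 2.17 with any single library left out, and the unadjusted p was 0.0701 to 0.137 when flox replicate 1 or 2 or cKO replicate 1, 3 or 4 was the library left out.

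In the constitutive cross *Trp63* was at 7.08, 25.3 and 30.7 CPM in WT and at 27.7, 49.1 and 15.4 CPM in KO. The ranges overlapped on both sides, with a log2 difference of 0.54 (SE 0.71), which was 0.044 without KO replicate 2 and at most 0.94 with any other library left out. The effects in the 2 models were not shown to differ (log2 difference −0.96, SE 0.97, unadjusted p = 0.334). Counts over the whole interval do not separate TAp63 from the other p63 isoforms. Some markers of other cells, but not all, stood apart between flox and cKO. The summed level of 6 macrophage and leukocyte markers was 24.2 to 29.4 CPM in cKO and 0 to 8.89 in flox, although *Ptprc*, the antigen shared by leukocytes, was at 0 in 12 of the 13 libraries and *Lyz2* at 0 in 7. The sum of 6 erythroid markers was 76.9 to 191 CPM in cKO and 282 to 1323 in flox. Pregranulosa and stromal markers overlapped, at 120 to 204 CPM in cKO and 79.9 to 176 in flox. Endothelial markers also overlapped, at 43.0 to 102 and 39.3 to 79.1. Of the macrophage and leukocyte markers, *Lyz2* had 291 reads over the 13 libraries and *Adgre1* 49. *Ptprc*, *Csf1r*, *C1qa* and *Cd68* had 5 to 19 each. The part of any of these markers in the values of *Trp63* was not tested.

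*Trp53* (ENSMUSG00000059552.13; chromosome 11, 69580359 to 69591873, plus strand) encodes p53, the other transcription factor below CHK2. It was the thinnest of the 10 genes, with 0 to 36 reads per library and a mean of 14.6. The level was 5.31, 10.51 and 0.816 CPM in WT, 9.88, 11.7 and 0 in KO, 0.423, 6.22 and 7.76 in flox and 7.27, 0, 13.2 and 5.18 in cKO. Every group held a library under 1 CPM or at 0 and a library above 7 CPM. A count of 0, as in KO replicate 3 and cKO replicate 2, allows up to 1.32 and 1.17 CPM. The log2 differences of 0.38 (SE 1.82) in KO and 0.42 (SE 1.72) in cKO leave an interval from −3.38 to 4.14 and from −3.13 to 3.96, so changes of several-fold in either direction lay inside the intervals.

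*Bax* (ENSMUSG00000003873.11; chromosome 7, 45461697 to 45466898, minus strand), the pore former through which oocytes die, was counted with 138 to 477 reads per library. Its level was 97.8, 228 and 61.7 CPM in WT, 129, 138 and 60.7 in KO, 155, 97.7 and 161 in flox and 96.6, 120, 171 and 103 in cKO. The KO and cKO embryos overlapped their controls. The log2 differences were −0.24 (SE 0.43) in KO and −0.17 (SE 0.40) in cKO, and the interval in cKO, −0.99 to 0.66, stays within 1 log2 unit of 0.

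*Pmaip1* (ENSMUSG00000024521.8; chromosome 18, 66458533 to 66465565, plus strand) encodes NOXA. It was the only 1 of the 10 genes whose KO and WT embryos did not overlap. The WT embryos were at 12.8, 17.2 and 14.7 CPM (29, 36 and 54 reads) and the KO embryos at 1.14, 7.29 and 0 CPM (3, 15 and 0 reads). Across all genes tested, 5.67% were lower in every KO than in every WT embryo, and 9.46% did not overlap in either direction. In cKO against flox 0 of the 10 genes stood apart, with 4.97% over all genes. The log2 difference was −2.40 (SE 1.79, 95% interval −6.08 to 1.29), with an unadjusted p of 0.192 and an adjusted p of 0.967 in edgeR's test. The exact permutation p was 0.10, which is the smallest that 3 against 3 embryos allow. With edgeR it was −4.56 (unadjusted p = 0.0581) without KO replicate 2, and −3.54 in the fit by limma's voom (unadjusted p = 0.0214, adjusted p = 0.880). In the conditional cross the direction of the means was the opposite, with 0, 0 and 9.70 CPM in flox and 10.4, 4.69, 10.3 and 6.90 in cKO. The difference there was 1.31 (SE 1.65, unadjusted p = 0.434 in edgeR's test), and 3.38 by limma's voom (unadjusted p = 0.0396, adjusted p = 0.9989). Without flox replicate 3 both remaining flox libraries were at 0, and the unadjusted p was 0.0110 and the adjusted p 1. The difference between the effects was −3.71 (SE 2.43, unadjusted p = 0.140, adjusted p = 0.9999 in edgeR's test).

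Beside the KO values, macrophage and leukocyte markers summed to 5.70 to 8.75 CPM in KO and 0.478 to 2.45 in WT, and 4 endothelial markers to 8.80 to 30.0 CPM in KO and 35.8 to 46.8 in WT. Of the endothelial markers, *Pecam1* had 1260 reads over the 13 libraries, *Tek* 311, *Cdh5* 75 and *Kdr* 45. *Cdh5* was at 0 in 5 libraries and *Kdr* in 8, so the endothelial sum was mostly *Pecam1*. The counts do not show which cells these reads came from. The other sums overlapped between KO and WT. Pregranulosa and stromal markers were at 84.1 to 122 CPM in KO and 110 to 174 in WT, and erythroid markers at 0 to 152 and 90.8 to 238. The part of any of these markers in the values of *Pmaip1* and *Atm* was not tested.

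*Bbc3* (ENSMUSG00000002083.13; chromosome 7, 16308393 to 16318205, plus strand), which encodes PUMA, had 0 to 135 reads per library. It was at 0, 5.73 and 36.7 CPM in WT, 0, 23.8 and 8.80 in KO, 22.8, 0.889 and 13.6 in flox and 0, 27.7, 16.9 and 3.11 in cKO. All 4 groups spanned from near or at 0 to above 20 CPM, and a count of 0 allowed up to 1.33, 1.14 and 1.04 CPM in WT, KO and cKO replicate 1. The log2 differences were −0.39 (SE 1.66) and −0.06 (SE 1.55) in KO and cKO.

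The survival proteins gave no called difference. *Bcl2* (ENSMUSG00000057329.7; chromosome 1, 106538178 to 106714274, minus strand) was at 27.0, 15.3 and 23.4 CPM in WT and 22.8, 36.0 and 20.2 in KO. In the conditional cross it was at 3.38, 55.1 and 53.3 CPM in flox and 19.4, 10.54, 13.95 and 54.2 in cKO. The flox and cKO embryos each held a low and a high set of libraries, and the log2 difference between them was −0.60 (SE 0.77), beside 0.26 (SE 0.84) for KO. *Mcl1* (ENSMUSG00000038612.16; chromosome 3, 95658788 to 95663176, plus strand), the short-lived survival protein that NOXA binds, was at 66.8, 140 and 153 CPM in WT and 134, 204 and 124 in KO. It was at 93.4, 83.5 and 102 CPM in flox and 181, 83.6, 97.7 and 76.3 in cKO, where replicate 1 alone stood above the controls. Its log2 differences of 0.36 (SE 0.39) and 0.24 (SE 0.37) were within the spread between embryos.

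**Figure D2:**
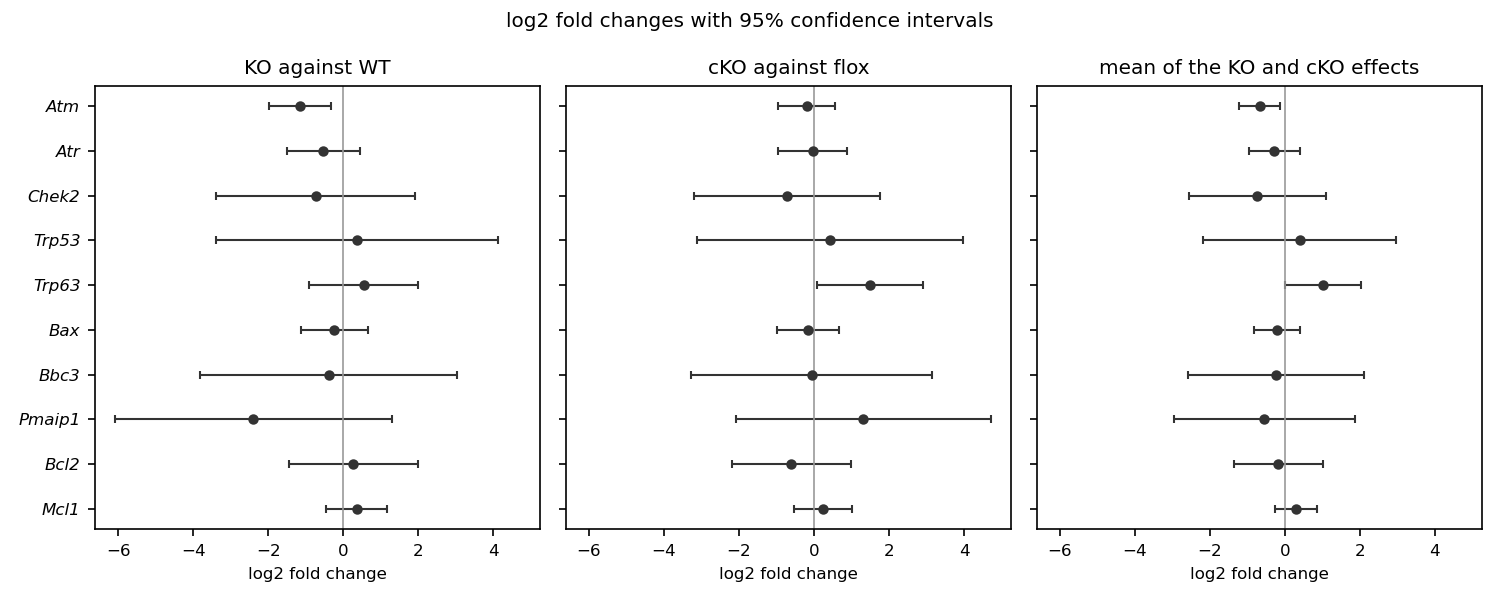
Log2 fold change (x axis) of each gene (y axis) in KO against WT, in cKO against flox and as the mean of both effects. Points are edgeR estimates and bars their 95% confidence intervals from a fit of all 13 libraries. The interval of *Atm* lies below 0 in KO and in the mean effect, that of *Trp63* above 0 in cKO and in the mean effect, before any adjustment for the 13086 genes tested, and all other intervals cross 0.

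The precision of these values followed the number of reads, as the plot of interval widths by gene shows. In KO against WT the SE of the log2 difference was between 0.39 (*Mcl1*) and 1.82 (*Trp53*), with a median of 0.77 over the 10 genes and 0.85 over all genes tested. The 95% interval stayed within 1 log2 unit of 0, a 2-fold change, for 0 of the 10 genes in KO, with 11.4% over all genes. In cKO it did so for *Atm*, *Atr* and *Bax*, 3 of the 10, with 14.9% over all genes. For the other 7 genes in cKO, and for all 10 in KO, a 2-fold change in at least 1 direction lay inside the interval. Within groups, the variance of the raw counts was 5.43 (*Pmaip1*) to 60.1 (*Mcl1*) times their mean. Counting error alone gives 1 where library sizes are equal. The counts were not scaled to library size for this ratio, and unequal sizes, such as 2204231 to 3674989 reads in WT, add to it.

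**Figure D3:**
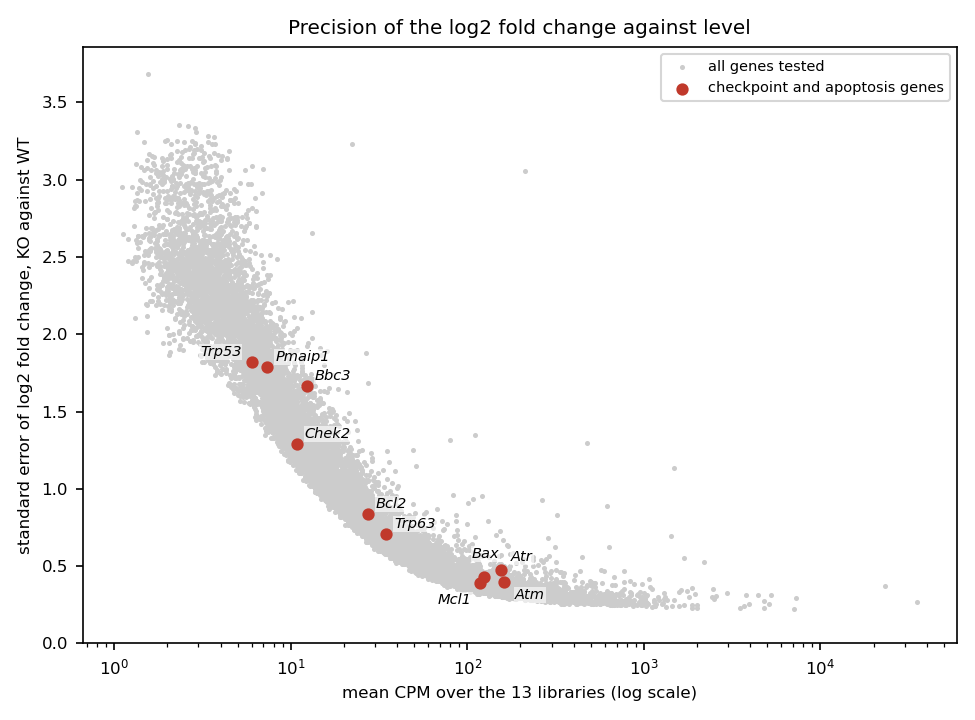
Standard error of the log2 fold change in KO against WT (y axis) against the mean level over the 13 libraries in CPM (x axis, log scale). Grey points are the genes tested that have an SE and red points the 10 genes named. *Atm*, *Atr*, *Bax* and *Mcl1* sit at 118 to 162 CPM with SEs of 0.39 to 0.48, and *Trp53*, *Pmaip1*, *Bbc3* and *Chek2* at 6.02 to 12.3 CPM with SEs of 1.29 to 1.82.

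The mean of both effects of GR loss uses all 13 embryos and has a smaller SE. It called 0 of the 10 genes, with 0% over all genes, and 2 of 10 had an unadjusted p under 0.05, with 5.34% over all genes. These were *Atm*, at −0.67 (SE 0.27, unadjusted p = 0.0196, adjusted p = 0.882 in edgeR's test), and *Trp63*, at 1.02 (SE 0.49, unadjusted p = 0.0489, adjusted p = 0.899 in edgeR's test). For *Atm* the value was −0.35 without WT replicate 2. The other 8 genes had mean effects between −0.73 (*Chek2*) and 0.40 (*Trp53*). The test of the difference between the models called 0 of 10, with 0% over all genes, and gave 0 of 10 an unadjusted p under 0.05, with 4.39% over all genes. DESeq2 and limma's voom called 0 of 10 in both of these comparisons. Voom gave an unadjusted p under 0.05 to 1 gene, *Pmaip1*, in the difference, and voom's share over all genes is not given here.

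The crosses differ in alleles, in tamoxifen and possibly in collection, which cannot be told apart, and were compared only to see whether the levels could be set side by side. Of the 10 genes, 0 were called in the mean of flox and cKO against the mean of WT and KO, with 0.00764% called over all genes, and 0 had an unadjusted p under 0.05 by edgeR, DESeq2 or limma's voom, with 5.59% over all genes by edgeR. *Mcl1* had the lowest p of the 10, at 137 ± 44.5 CPM in the 6 constitutive and 103 ± 35.9 CPM in the 7 conditional libraries (SD). Its log2 difference was −0.43 (SE 0.27, unadjusted p = 0.122, adjusted p = 0.930 in edgeR's test), and the exact permutation p over the 1716 divisions was 0.152 (n = 7 and 6). *Trp63* was at 25.9 ± 14.4 and 42.2 ± 28.7 CPM in the constitutive and conditional libraries, a log2 difference of 0.45 (SE 0.49).

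The rest of the pathway was read from a list of 95 genes in 7 roles, which includes the 10. Of the other 85 genes, 66 were tested, and 0 were called in KO against WT, in cKO against flox, in the mean effect, in the difference or between the crosses. DESeq2 and limma's voom also called 0 of them in these 5 comparisons. In KO, 2 of the 66 had an unadjusted p under 0.05 and were higher and 2 were lower, with 5.82% of all genes tested in either direction, and in cKO there were 0 in either direction, with 3.19% of all genes. The median log2 difference of the 66 was 0.07 in KO and 0.02 in cKO, beside −0.03 and −0.01 over all genes tested and −0.31 and −0.04 over the 10.

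Among checkpoint genes, *Rad50*, a subunit of the break-binding MRN complex, and *Topbp1*, an activator of ATR, had the most reads outside the 10. *Rad50* was at 608 ± 77.9 CPM in WT and 690 ± 160 in KO, and at 515 ± 146 in flox and 508 ± 174 in cKO. *Topbp1* had the lowest p among list genes outside the 10 that were lower in cKO, at 307 ± 89.3 CPM in flox and 211 ± 45.5 in cKO (log2 difference −0.54, unadjusted p = 0.0744 in edgeR's test). *Clspn*, the adaptor through which ATR activates CHK1, had the lowest p among those outside the 10 that were higher in KO, at 44.8 ± 4.17 CPM in WT and 92.5 ± 35.6 in KO (log2 difference 1.04, SE 0.47, unadjusted p = 0.0370, adjusted p = 0.847 in edgeR's test). *Trp53bp1*, a chromatin reader at breaks, had the lowest p among those outside the 10 that were lower in KO, at 43.7 ± 33.8 and 3.08 ± 4.60 CPM (log2 difference −3.78, SE 1.23, unadjusted p = 0.00520, adjusted p = 0.847 in edgeR's test), but its last 500 bases lie inside *Tubgcp4*. *Chek1*, the effector kinase below ATR, was picked after its values were seen, as the only list gene whose groups stood apart in the same direction in both models. Of the 10 genes 0 did so, and of all genes tested 0.344%. *Chek1* was at 67.9 ± 10.8 CPM in WT and 116 ± 10.48 in KO, and at 54.5 ± 4.15 in flox and 69.7 ± 6.06 in cKO, with unadjusted p-values of 0.0453 and 0.317 in edgeR's test.

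Of the regulators of p53, *Mdm4*, which binds and inhibits p53, had the lowest p among list genes outside the 10 that were higher in cKO. It was at 228 ± 36.3 CPM in flox and 333 ± 58.0 in cKO (log2 difference 0.55, SE 0.28, unadjusted p = 0.0584, adjusted p = 0.9998 in edgeR's test), and at 394 ± 67.9 in WT and 394 ± 112 in KO. *Csnk1a1*, which encodes a casein kinase 1 isoform, differed by 0.08 (SE 0.27) in KO and 0.14 (SE 0.25) in cKO. Among p53 targets, *Trp53inp1* differed by 0.21 (SE 0.39) and 0.25 (SE 0.37). *Aen*, a p53-induced nuclease, was at 59.9 ± 38.6 CPM in WT, 23.4 ± 19.7 in KO, 105 ± 63.4 in flox and 172 ± 94.2 in cKO. Its differences of −1.35 in KO (unadjusted p = 0.0521) and 0.72 in cKO (unadjusted p = 0.247) were not called by edgeR's test. Between the crosses its unadjusted p was 0.000505, the lowest of the 66 genes, and its adjusted p 0.440 in edgeR's test.

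In the BCL2 family, *Bcl2l1*, which encodes BCL-XL, differed by −0.27 (SE 0.58) in KO and 0.50 (SE 0.55) in cKO. *Bcl2l10* was at 0 in 7 of the 13 libraries and had at most 43 reads in any. Of the BH3-only genes, *Bad* was at 27.0 ± 12.1 CPM in WT and 9.17 ± 7.71 in KO (log2 difference −1.55, SE 0.89, unadjusted p = 0.0937 in edgeR's test), and *Bid* differed by 0.51 (SE 1.06). Of the inhibitors of apoptosis, *Birc5* differed by −0.14 (SE 0.28) and −0.18 (SE 0.26), and *Xiap* by 0.71 (SE 0.41) and −0.10 (SE 0.38), in KO and cKO in that order.

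**Figure D4:**
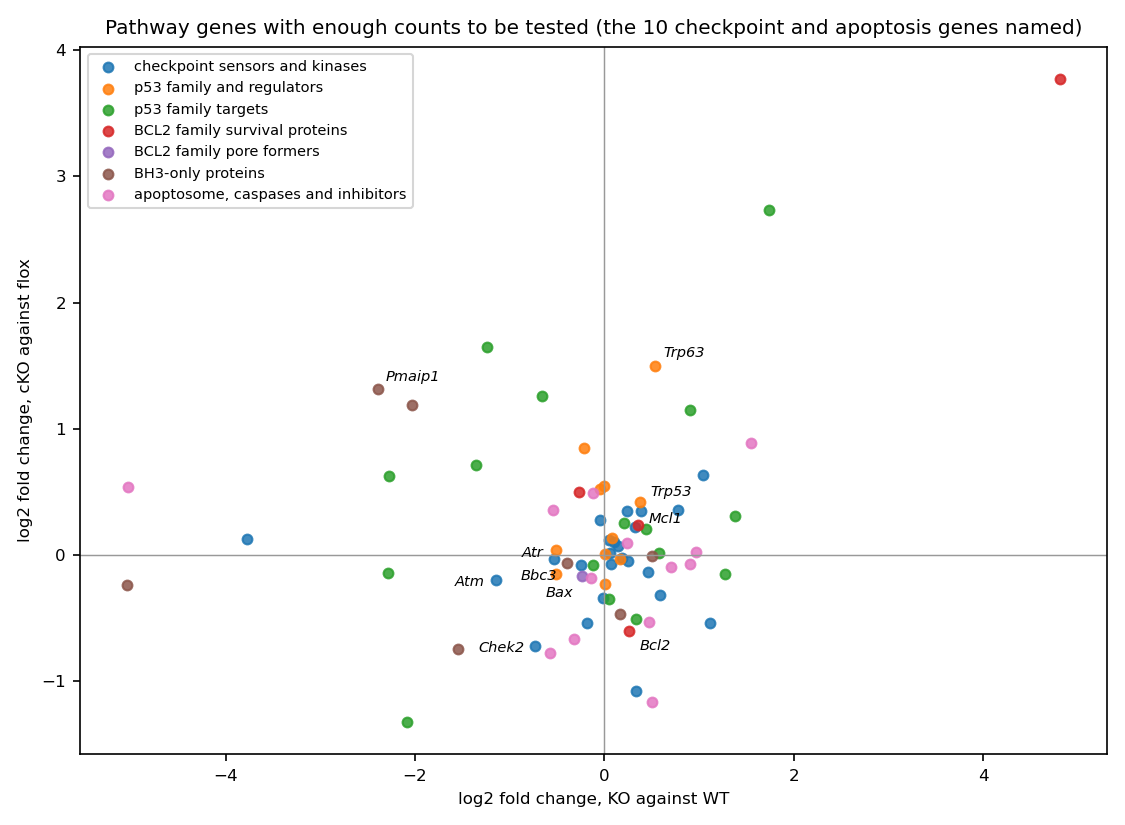
Log2 fold change in cKO against flox (y axis) and in KO against WT (x axis) of the 76 list genes tested, coloured by role, with the 10 genes named. *Trp63* stands at 0.54 and 1.499 and *Pmaip1* at −2.40 and 1.31, and the lone point far to the upper right is *Bcl2l10*, with a mean of 2.80 CPM and 0 reads in 7 libraries.

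A further 10 list genes had too few reads to be tested, and 9 had 0 counts in all 13 libraries. These were *Hus1b*, *Wee1*, *Bcl2l2*, *Bcl2a1a*, *Bcl2a1b*, *Bcl2a1d*, *Bak1*, *Bik* and *Diablo*. A count of 0 does not show that these genes were silent. Reads were counted over whole intervals, and those in overlaps with other genes may have been left out. All 5 list genes whose interval lies wholly inside other genes, *Hus1b*, *Wee1*, *Bcl2a1d*, *Bak1* and *Diablo*, were at 0. *Bak1*, the other main pore former of mitochondria beside *Bax*, lies inside *Ggnbp1*. *Bcl2l2* and *Bcl2a1b* were overlapped over 98.7% and 98.0% of their intervals. Of the 44 list genes with no overlap, 1 was at 0. *Bok*, the remaining pore former, had reads in 1 library only. Of this class of proteins *Bax* was therefore the only gene with a usable level.

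**Figure D5:**
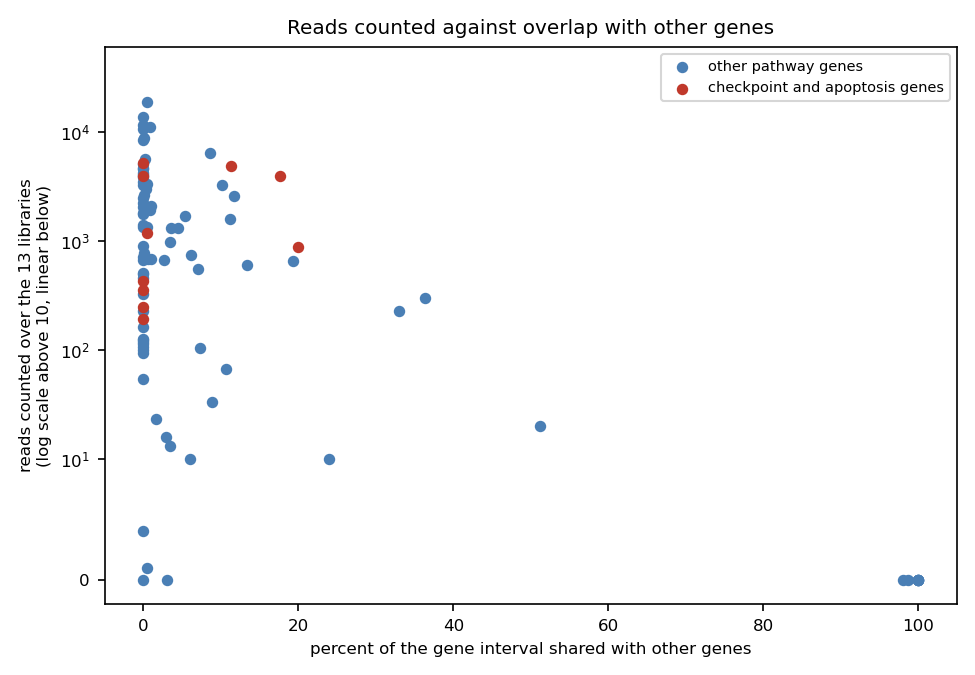
Reads counted over the 13 libraries (y axis, log scale above 10 and linear below) for the 95 list genes, by the share of the gene's interval that other annotated genes overlap (x axis, percent). The 5 genes at 100% and the 2 genes at 98.0% and 98.7% are at 0 reads. So are *Bcl2a1a* at 0% and *Bik* at 3.03%. The 10 genes described here (red) are at 19.98% or below.

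The level of *Trp63* over the 13 libraries was most like that of *5430440P10Rik* (Pearson r = 0.835, Spearman rho = 0.830), *Hccs* (0.821 and 0.808) and *Olah* (0.810 and 0.813), among 7153 genes with a mean of at least 20 CPM. The values are on log2 CPM, the 13 libraries share the 4 groups and the crosses, and the figures are a description of the closest of many genes.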

How the data were processed

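Germ cells of 13 female embryos were profiled by 3′ Tag-Seq, 1 library per embryo, and grouped by the deposited labels. The authors trimmed reads with cutadapt, aligned them to mm10 with STAR 2.6.0 and counted them with featureCounts 1.6.3, and the deposited table holds raw counts per gene. The annotation and strand setting are not given in the sources used here. In all 55335 rows the listed length equals the whole gene interval, so intronic reads were counted and reads in overlaps of genes may have been left out. The authors also deposited 2 tables of their own comparisons (log2 fold changes, mean expression, test statistics and p-values, made with edgeR 3.28.1 and limma 3.42.2), which were not used. Gene symbols came from GENCODE M21 by identifier (55154 of 55335 named).

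Counts were tested with edgeR 4.0.16 in R 4.3.3 (TMM, filterByExpr with a minimum count of 10 and minimum total of 15, quasi-likelihood F test, 1 mean per group, all 13 libraries), with Benjamini-Hochberg adjustment over 13086 genes and a threshold of 0.05. CPM use the kept-gene library size times the TMM factor. Single genes were also compared by exact two-sided permutation of embryos on mean log2 CPM (prior count 2). Standard errors were derived from the F test, as the size of the log2 difference over the square root of F. They thus rest on the fitted spread between embryos, and the intervals are symmetric around the difference. The limit set on a count of 0 (3 counts) covers counting error only. The alternatives were DESeq2 1.42.0, limma 3.58.1 voom, RLE and upper-quartile scaling, other filters, fits restricted to the 2 groups of a comparison, a replicate block, and leaving out single libraries. The tests were checked on simulated counts, and the outcome is not given here.

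The 10 genes and all gene lists were chosen with earlier results of these data known. The genes named beyond the 10 are *Nr3c1*, in each role of the pathway list the 2 others with the highest mean CPM, any called list gene, the list gene with the lowest p in each direction in KO and in cKO, the 3 genes most like *Trp63*, and list genes at 0.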

Additional observations from a re-analysis of the deposited data

How the results depend on the processing

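Of 995 values of the 10 genes under the alternatives, 0 had an adjusted p ≤0.05. With 3 or 4 embryos per group and 14.6 to 397 reads per gene on average, only large changes of the thinner genes could be seen, and a missed threshold does not show equal levels. DESeq2, RLE scaling, both other filters and the fits of 2 groups changed no direction, except that *Bcl2*, *Chek2*, *Trp53*, *Bbc3* and *Pmaip1* do not have 10 counts in every library and have no value under that filter. Neither RLE nor upper-quartile scaling moved the median of all genes by more than 0.031 log2 units. Upper-quartile scaling turned the difference of effects of *Chek2* from −0.01 to 0.000615.

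With limma's voom, signs turned for *Trp53* in KO (−0.17), for *Atr* in cKO (0.31), for the mean effect of *Atr* (0.012), *Trp53* (−0.057) and *Bcl2* (0.093), for the difference of effects of *Bax* (0.17) and *Bbc3* (0.41), and between the crosses for *Atm* (0.099), *Trp53* (0.0135), *Bcl2* (−0.19) and *Bbc3* (0.48). The cause was not tested.

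No pairing of embryos by replicate number was seen. The correlation of deviations from the group means was −0.050 to 0.064 over the 18 pairs with the same number, with 0 above 0.1. Over the 45 pairs with different numbers it was −0.074 to 0.076. Such values do not exclude shared litters, which the labels do not give. The replicate block called 0 of the 10 genes. With it signs turned for *Atr* in cKO (0.015), for the difference of effects of *Chek2* (1.30), *Mcl1* (−0.027) and *Bbc3* (2.85), and between the crosses for *Atm* (0.094), *Trp53* (0.050), *Bcl2* (−0.0782) and *Bbc3* (1.82).

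Leaving out 1 library turned 64 of 650 signs. The 650 include fits of KO or cKO without a library of the other cross, where the difference hardly moves. *Atm* in KO, for example, was at −1.136 without flox replicate 1. The share of turned signs is therefore lower than for libraries that enter the comparison. In KO the ranges that crossed 0 were −0.56 to 0.46 (*Bax*), −1.68 to 1.93 (*Bbc3*), −0.016 to 0.45 (*Bcl2*) and −0.14 to 1.23 (*Trp53*). In cKO they were −0.40 to 0.98 (*Atr*), −0.89 to 0.72 (*Bbc3*), −1.72 to 0.10 (*Chek2*), −0.098 to 0.38 (*Mcl1*) and −0.21 to 0.95 (*Trp53*). For the mean effect they were −0.46 to 0.23 (*Atr*), −0.36 to 0.15 (*Bax*), −0.87 to 0.94 (*Bbc3*), −0.53 to 0.030 (*Bcl2*) and −1.62 to 2.50 (*Pmaip1*). For the difference of effects they were −0.39 to 0.63 (*Bax*), −1.63 to 1.98 (*Bbc3*), −0.83 to 0.99 (*Chek2*), −0.16 to 0.46 (*Mcl1*) and −0.56 to 0.81 (*Trp53*). Between the crosses they were −0.16 to 0.29 (*Atm*), −0.027 to 0.48 (*Bax*), −0.45 to 1.13 (*Bbc3*), −0.034 to 0.61 (*Bcl2*), −3.37 to 0.76 (*Pmaip1*) and −0.50 to 0.25 (*Trp53*). *Atm* in KO and *Trp63* in cKO kept their signs under every alternative, which was not particular to them. *Atr*, *Chek2*, *Mcl1*, *Pmaip1* and *Trp63* in KO also kept theirs wherever a value was given. So did *Atm*, *Bax*, *Bcl2* and *Pmaip1* in cKO.

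Over all genes, the counts of calls in KO, in cKO, in the mean effect, in the difference and between the crosses were 0, 0, 0, 0 and 1. They were 15, 11, 17, 8 and 35 with no filter and 12, 5, 14, 10 and 35 with DESeq2, and with at least 10 counts in every library they were 1 for the mean effect and 0 between the crosses. With 1 library left out they were 0 to 2 in KO, 0 to 1 for the mean effect and 1 to 11 between the crosses. The pathway list without the 10 had 1 call between the crosses with no filter.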
